A study of Rattus norvegicus with 8 samples.

Results

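This account concerns the effect of fibroblast growth factor 9 (FGF9) after 10 days in rat spinal cord cultures, measured on 4 of the 8 arrays of the study. The arrays were chosen by their titles: 2 of cultures given human FGF9 at 100 ng/ml for 10 days and 2 of untreated cultures collected at the same time. The other 4 arrays hold the same treatment and its control at 24 h. Cultures came from the spinal cords of Sprague-Dawley rat embryos (E15.5), and RNA was hybridised to the Affymetrix Rat Gene 1.0 ST array. The labels describe neither a sorting of cells nor a genetic change in the animals. The titles name myelinating cultures while the source label names astrocytes grown from neurospheres. The levels of 14506 genes with 1 symbol each were compared. The labels do not say that a group's 2 arrays came from different cultures. The p-values below therefore reflect how these arrays vary, which may be technical.

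FGF9 is a secreted ligand of the FGF receptors FGFR1, FGFR2 and FGFR3, tyrosine kinases that signal mainly through the Ras, MEK and ERK cascade. ERK activity switches on ETS and AP-1 transcription factors and also the cascade's own brakes, the Sprouty and Spred proteins and the dual-specificity phosphatases. In the spinal cord FGF signalling is known for its part in the growth of glial precursors and in the state of astrocytes. Myelinating cultures hold neurons with long axons, oligodendrocytes that wrap them, a layer of astrocytes, and varying numbers of microglia, meningeal fibroblasts and ciliated cells that line the central canal. Each array reads the summed RNA of such a culture, so fewer cells of a type and less RNA per cell cannot be told apart.

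Levels are on a log2 scale as deposited, and 1 log2 unit is a doubling. Values are given for pair 1 and then pair 2, where a pair is the control and the FGF9 array that share a replicate number. Each difference is FGF9 minus control, with the standard error (SE) of the fit and n = 2 arrays per group. Its p-value comes from limma with the pair as a block, adjusted by the Benjamini-Hochberg method over all 14506 genes, and a gene is said to have risen or fallen where the adjusted p was under 0.05. The pairs stood apart from each other. The 2 arrays of pair 2 carry another name prefix and correlated at r = 0.968 with each other across features, against 0.897 to 0.939 with the remaining 6 arrays, which correlated at 0.962 to 0.989.

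The label of a myelinating culture was set against the defining markers of its cells. Mbp, myelin basic protein, read 12.01 and 10.93 in the controls and 12.53 and 10.93 with FGF9. Nefl, the light neurofilament chain of axons, read 11.50 and 12.20 in the controls and 10.35 and 11.48 with FGF9, and Gfap, the intermediate filament of astrocytes, 13.24 and 12.40 in the controls and 12.64 and 12.65 with FGF9. All these readings lay far above the 5th percentile of the arrays, which was 4.79 to 4.89. Some markers of meningeal cells and fibroblasts differed strongly between the pairs. Ptgds, a prostaglandin synthase abundant in the meninges, read 13.60 and 6.73 in the controls and 12.61 and 5.63 with FGF9. The summed linear level of the 36 fibroblast, meningeal and pericyte markers was 48663 and 9838 in the controls and 35129 and 15478 with FGF9.

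FGF9 changed 933 genes at 10 days, 6.43% of those tested, of which 453 (3.12%) rose and 480 (3.31%) fell. More than a 2-fold change was reached by 250 of the rises and 220 of the falls, and more than a 4-fold change by 48 and 12. Both FGF9 arrays lay above both control arrays in 369 of the 453 genes that rose, against 14.8% of all genes, and below both in 270 of the 480 that fell, against 11.3% of all genes. The called genes were chosen for their differences in these same arrays, so these counts describe them and are no separate evidence. Differences between pair 1 and pair 2 agreed in sign for 63.2% of all genes and correlated across genes at r = 0.547, as a description. The calls rest on comparing within pairs. Without the pair block limma called 0 genes, and the smallest adjusted p was 0.066. An unadjusted p under 0.05 was then found for 816 genes, and for 3475 with the block. Leaving out pair 2 at 10 days gave 569 calls and leaving out pair 1 gave 1506, of which 382 and 692 were among the 933. With the pair as a random effect, whose correlation is estimated from the arrays, limma called 388 rises and 217 falls. That fit is called the random block below, and its counts are given where they differ by more than 1.5 times for a list with 4 or more calls in a direction, and for some smaller lists.

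**Figure D1:**
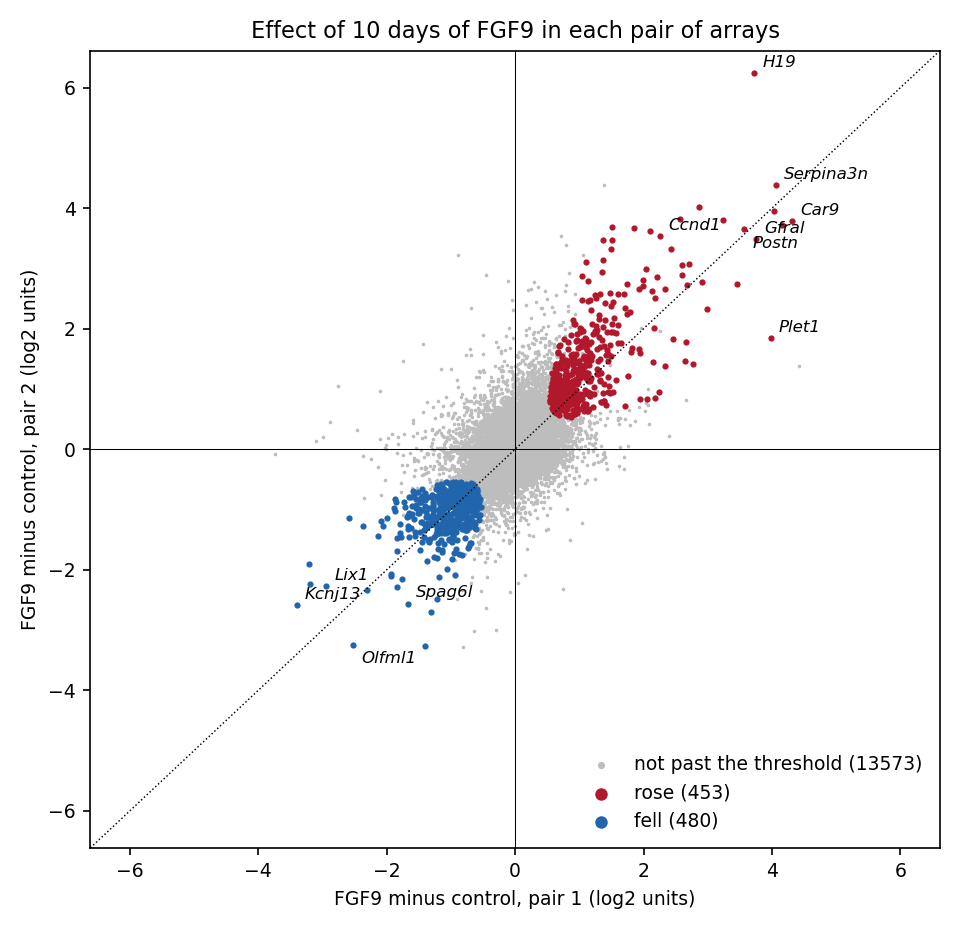
Difference of each of 14506 genes (FGF9 minus control, log2 units) in pair 1 on the horizontal axis and pair 2 on the vertical axis, with genes that rose in red, genes that fell in blue and the remaining genes in grey. The coloured genes lie in the 2 quadrants of shared sign. H19 lies furthest out, at 3.72 in pair 1 and 6.24 in pair 2.

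The largest rise was that of an imprinted non-coding RNA of fetal tissue, H19, which read 9.20 and 6.12 in the controls and 12.91 and 12.35 with FGF9. Its pairs differed by 3.72 and 6.24, a mean rise of 4.98 ± 0.55 (adjusted p = 0.0173). The control of pair 1 already lay far above that of pair 2, while the FGF9 arrays were close to each other. Serpina3n, a serine protease inhibitor of the acute phase made by reactive astrocytes, read 5.52 and 5.16 in the controls and 9.57 and 9.54 with FGF9, a rise of 4.22 ± 0.24 (adjusted p = 0.00595). Lcn2, the siderophore-binding protein lipocalin 2, read 8.05 and 7.50 in the controls and 10.92 and 11.52 with FGF9 and rose by 3.44 ± 0.27 (adjusted p = 0.0124). Car9, a membrane carbonic anhydrase known as a target of the hypoxia-inducible factors, read 5.81 and 5.28 in the controls and 10.12 and 9.07 with FGF9 and rose by 4.05 ± 0.20 (adjusted p = 0.00413). In these genes the FGF9 arrays lay well above both controls, and the controls of Serpina3n and Car9 were close to the low end of the arrays, where folds can be understated.

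Receptors and enzymes were also among the 15 largest rises. Gfral, the receptor of GDF15, read 5.14 and 6.23 in the controls and 8.89 and 9.72 with FGF9, a rise of 3.62 ± 0.14 (adjusted p = 0.00216). Hsd11b1, which regenerates active glucocorticoid inside the cell, read 8.73 and 8.14 in the controls and 11.29 and 11.96 with FGF9 and rose by 3.19 ± 0.35 (adjusted p = 0.0173). Itga5, a subunit of the fibronectin receptor, read 7.25 and 6.45 in the controls and 9.68 and 9.77 with FGF9, higher by 2.88 ± 0.23 (adjusted p = 0.0124). Ccnd1, the cyclin that starts the G1 phase of the cell cycle and a classical target of ERK, read 9.25 and 8.51 in the controls and 11.51 and 12.05 with FGF9, higher by 2.89 ± 0.35 (adjusted p = 0.0195). In each of these the lower FGF9 array was above the higher control.

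Proteins outside the cell and of the cytoskeleton made up much of the rest. Postn, the matrix protein periostin, read 7.52 and 5.74 in the controls and 11.09 and 9.39 with FGF9 and rose by 3.61 ± 0.23 (adjusted p = 0.0065). Adamts1, a metalloprotease that cleaves proteoglycans, read 7.77 and 5.93 in the controls and 11.01 and 9.73 with FGF9 and rose by 3.52 ± 0.30 (adjusted p = 0.0143). Krt18, a keratin of simple epithelia, read 5.50 and 6.12 in the controls and 8.95 and 8.87 with FGF9, a rise of 3.10 ± 0.34 (adjusted p = 0.0173). Mamdc2, a secreted protein with MAM domains, rose by 3.99 ± 0.35 (adjusted p = 0.0148), Sectm1b, a secreted and membrane protein, by 3.93 ± 0.16 (adjusted p = 0.00216), and Fndc3c1, a protein with fibronectin domains, by 2.90 ± 0.18 (adjusted p = 0.0065). Plet1 rose unevenly, by 3.98 in pair 1 and 1.84 in pair 2 (adjusted p = 0.0307). All 15 genes had both FGF9 readings above both controls.

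**Figure D2:**
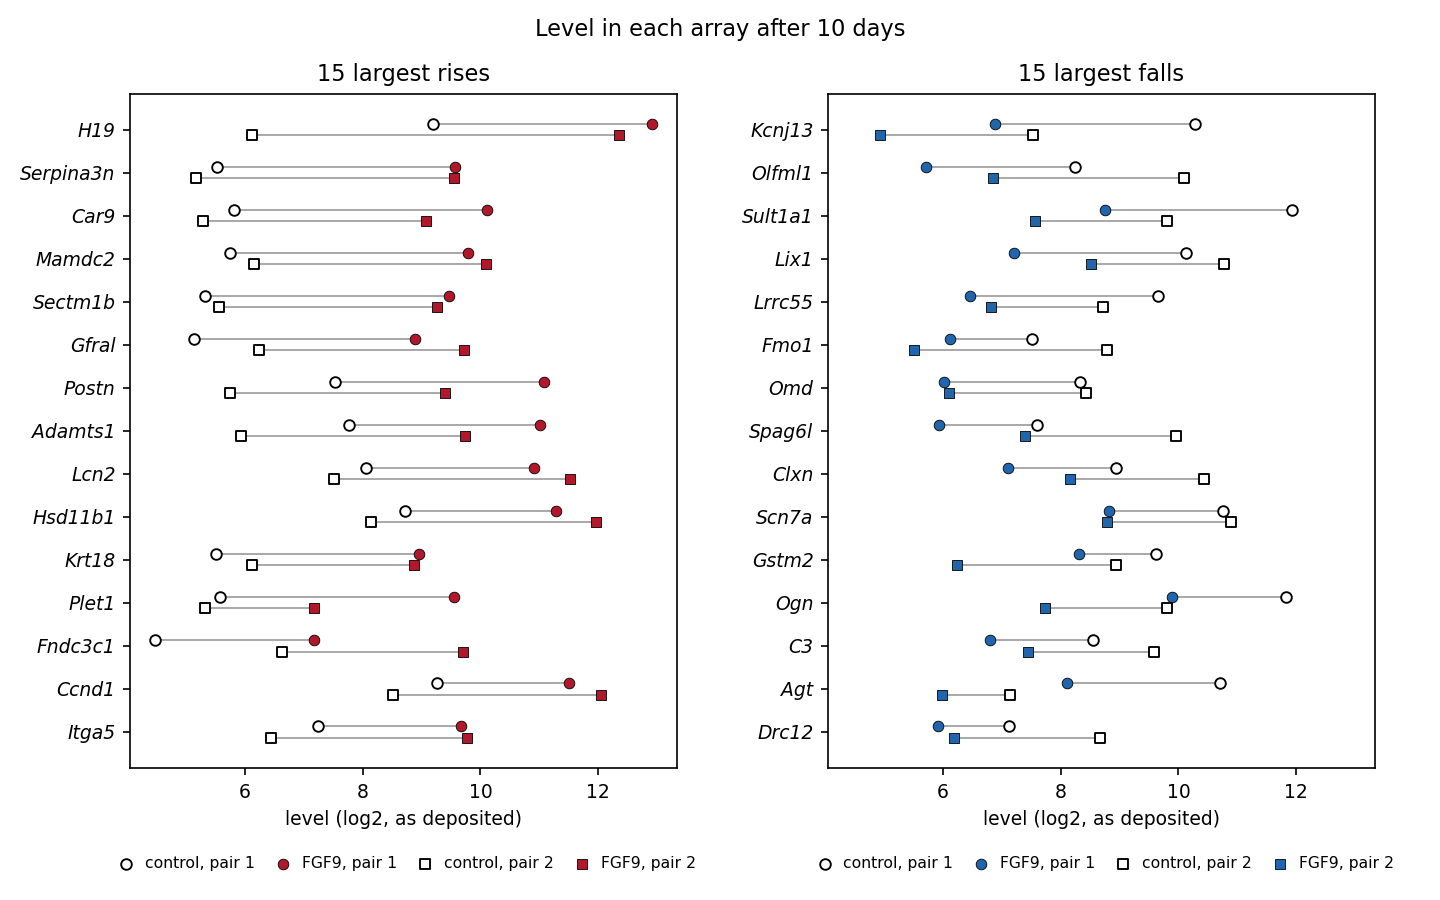
Level of the 15 genes with the largest rises (left) and the 15 with the largest falls (right) in each of the 4 arrays at 10 days, on the deposited log2 scale; open symbols are controls, filled symbols FGF9, circles pair 1 and squares pair 2, and a line joins the arrays of a pair. With FGF9 every pair on the left reads higher and every pair on the right lower, while the pairs can start from different levels, as for H19 at 9.20 and 6.12 in the controls.

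Promoter letters are shown for Serpina3n, Gfral and Car9 because they are among the 6 largest rises and hold a searched motif upstream of the start. The sequences are from RefSeq (build GRCr8), 5′ to 3′ on the strand of the gene, with the motif in capitals. The STAT motif (TTCNNNGAA, the general form bound by STAT factors) was matched in Serpina3n and Gfral, and the AP-1 motif (TGANTCA, bound by Fos and Jun dimers) in Car9. Their windows are chr6:129088239-129088307 on the plus strand for Serpina3n, chr8:85843804-85843872 on the minus strand for Gfral and chr5:62558936-62559002 on the plus strand for Car9.
Serpina3n: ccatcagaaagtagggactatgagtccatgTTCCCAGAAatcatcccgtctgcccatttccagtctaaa
Gfral: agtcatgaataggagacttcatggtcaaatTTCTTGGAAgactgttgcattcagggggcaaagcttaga
Car9: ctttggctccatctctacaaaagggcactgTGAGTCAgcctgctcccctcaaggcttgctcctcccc
The STAT match of Serpina3n lies at -123 to -115 from the start and that of Gfral at -137 to -129. The AP-1 match of Car9 lies at -58 to -52, and Car9 also holds the hypoxia response motif TACGTG on the other strand at +2 to +7. Over the 11951 genes with a RefSeq promoter (250 bases before and 50 after the start), the STAT motif was in 7.60%, against 7.20% of the 375 that rose and 5.57% of the 377 that fell. AP-1 was in 6.23% of all, 8.00% of those that rose and 4.24% of those that fell. The motif of ETS factors (CCGGAAG) was in 13.0% of all, 9.33% of those that rose and 4.24% of those that fell. These shares are descriptions of letters, searched on both strands, and a match is not a binding site.

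Falls were led by a potassium channel of the choroid plexus epithelium, Kcnj13, which read 10.28 and 7.52 in the controls and 6.88 and 4.93 with FGF9 and fell by 3.00 ± 0.41 (adjusted p = 0.022). The FGF9 array of pair 1 lay below the control of its own pair and also below that of pair 2. Sult1a1, a sulfotransferase of phenols and monoamines, read 11.94 and 9.80 in the controls and 8.75 and 7.57 with FGF9 and fell by 2.71 ± 0.36 (adjusted p = 0.0214). Lrrc55, an accessory subunit of large calcium-activated potassium channels, read 9.66 and 8.72 in the controls and 6.46 and 6.81 with FGF9, a fall of 2.56 ± 0.32 (adjusted p = 0.0196). Scn7a, a sodium-sensing channel present in glia, read 10.75 and 10.89 in the controls and 8.82 and 8.79 with FGF9 and fell by 2.02 ± 0.34 (adjusted p = 0.0304), with both FGF9 readings close together and below both controls. Agt, angiotensinogen, which astrocytes make in the central nervous system, read 10.71 and 7.13 in the controls and 8.11 and 5.99 with FGF9 and fell by 1.87 ± 0.34 (adjusted p = 0.0373), with groups that overlapped and pair 2 lower in both arrays.

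Some small leucine-rich proteoglycans of connective tissue were among the falls. A further gene of this family, outside the 15 largest falls, also fell. Among several others that did not pass, named after their values were seen, Lum and Dcn were higher in both pairs and Epyc lower. Omd, osteomodulin, read 8.32 and 8.43 in the controls and 6.01 and 6.09 with FGF9, a fall of 2.32 ± 0.21 (adjusted p = 0.0155), and Ogn, osteoglycin, read 11.84 and 9.80 in the controls and 9.90 and 7.73 with FGF9, a fall of 2.00 ± 0.16 (adjusted p = 0.0124). C3, the central complement component, read 8.55 and 9.59 in the controls and 6.80 and 7.44 with FGF9 and fell by 1.95 ± 0.32 (adjusted p = 0.0291). Fmo1, a flavin monooxygenase, fell by 2.34 ± 0.42 (adjusted p = 0.0372) and Gstm2, a glutathione transferase, by 2.01 ± 0.31 (adjusted p = 0.0275). Olfml1 fell by 2.88 ± 0.26 (adjusted p = 0.0157) and Lix1 by 2.60 ± 0.19 (adjusted p = 0.0107). The remaining 3 of the 15, Spag6l, Clxn and Drc12, belong to motile cilia and are described with that group. Array probes of Serpina3n, Gstm2 and Spag6l may read near-identical family members as well.

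The ligand itself and its receptors were compared first among signalling genes. The cultures' own Fgf9 transcript read 8.26 and 8.08 in the controls and 6.97 and 7.32 with FGF9, a fall of 1.03 ± 0.17 (adjusted p = 0.0291). Fgfr3, the receptor carried by astrocytes, read 8.91 and 8.55 in the controls and 9.99 and 10.06 with FGF9 and rose by 1.29 ± 0.18 (adjusted p = 0.022). Fgfrl1, a receptor-like protein without a kinase, rose by 1.44 ± 0.18 (adjusted p = 0.0195) and Fgf2, basic FGF, by 1.19 ± 0.20 (adjusted p = 0.0299). Fgfr1 read 10.75 and 11.18 in the controls and 11.21 and 11.74 with FGF9, with a difference of 0.51 ± 0.13 (adjusted p = 0.0808), and Fgfr2 read 10.26 and 11.03 in the controls and 10.74 and 10.74 with FGF9, with a difference of 0.10 ± 0.21 (adjusted p = 0.838). Neither passed, and Fgfr2 was higher in pair 1 and lower in pair 2. The intracellular FGF homologues of neurons, Fgf13 and Fgf14, fell by 1.35 ± 0.28 (adjusted p = 0.0487) and 1.26 ± 0.13 (adjusted p = 0.0173). Of 22 measured ligands and receptors, 3 rose and 3 fell, with a median difference of -0.02 against 0.02 over all genes.

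Genes of ERK feedback and the transcription factors downstream of it formed the list with the largest share of rises among the 49 examined. Of 32 measured members 15 rose and 0 fell, with a median of 0.73 (0.67 and 0.95 in the pairs). The AP-1 and ETS motifs were each in 0 of 23 promoters of this list. The ETS factor Etv4 read 6.03 and 5.84 in the controls and 8.37 and 8.50 with FGF9 and rose by 2.50 ± 0.16 (adjusted p = 0.0065). Its relatives Etv5 and Etv1 rose by 2.29 ± 0.20 (adjusted p = 0.0144) and 1.32 ± 0.14 (adjusted p = 0.0173). Among the brakes, Spry4, a Sprouty inhibitor, read 7.24 and 7.52 in the controls and 8.74 and 9.60 with FGF9, a rise of 1.79 ± 0.18 (adjusted p = 0.0173), and Spred1 read 9.97 and 10.66 in the controls and 11.29 and 11.81 with FGF9, a rise of 1.24 ± 0.13 (adjusted p = 0.0173). The next genes are members named outside the naming rule, after their values were seen. Dusp6, the phosphatase specific for ERK, read 9.95 and 7.79 in the controls and 11.46 and 11.48 with FGF9 and rose by 2.60 ± 0.48 (adjusted p = 0.0382), by far more in pair 2. Spry1 rose by 1.12 ± 0.15 (adjusted p = 0.022) and Spry2 by 1.06 ± 0.15 (adjusted p = 0.0237). Without pair 2 the count of rises was 7 and without pair 1 it was 19.

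Acute phase genes and targets of STAT3, the factor that acts below interleukin-6 family receptors, rose in 7 of 24 measured members and fell in 0 (median 0.30). Beside Serpina3n and Lcn2 they included Timp1, an inhibitor of metalloproteases, which read 11.03 and 9.73 in the controls and 12.77 and 12.47 with FGF9 and rose by 2.24 ± 0.24 (adjusted p = 0.0173). Socs3, the feedback inhibitor of this receptor family, read 6.73 and 6.11 in the controls and 8.26 and 8.28 with FGF9, a rise of 1.85 ± 0.18 (adjusted p = 0.0173). Osmr, the oncostatin M receptor, rose by 1.43 ± 0.19 (adjusted p = 0.0213) and Cebpd, a factor of the acute phase, by 0.73 ± 0.14 (adjusted p = 0.0449). The 30 measured markers of reactive astrocytes overlap with this list, and 6 of them rose and 0 fell, with a median of 0.57 (0.28 and 0.73 in the pairs). Cd44, the hyaluronan receptor, read 10.04 and 8.00 in the controls and 12.17 and 10.62 with FGF9 and rose by 2.38 ± 0.23 (adjusted p = 0.0173). Emp1, an epithelial membrane protein, read 8.76 and 6.43 in the controls and 10.04 and 8.40 with FGF9 and rose by 1.63 ± 0.19 (adjusted p = 0.019). Gfap differed by -0.18 ± 0.30 (adjusted p = 0.784), lower in pair 1 and higher in pair 2. The count of reactive markers that rose was 14 without pair 1.

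The promoter of Emp1 is shown because it holds both motifs searched for the factors above, 2 of each, in chr4:169944003-169944168 on the plus strand for Emp1 (GRCr8, RefSeq). Capitals mark the matches, and the last AP-1 and STAT matches overlap.
Emp1: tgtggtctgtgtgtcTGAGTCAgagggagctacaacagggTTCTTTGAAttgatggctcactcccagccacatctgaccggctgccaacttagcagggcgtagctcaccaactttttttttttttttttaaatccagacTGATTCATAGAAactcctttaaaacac
The STAT motif was in 4 of 20 promoters of the acute phase list (20.0%), a share to be set beside the 7.60% of all promoters and drawn from few genes. Of these 4 genes, only Serpina3n rose.

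Genes that astrocytes use for their resting functions changed in both directions, with 5 of 31 measured members higher, 3 lower and a median of 0.03. F3, tissue factor, read 9.85 and 8.63 in the controls and 11.65 and 10.90 with FGF9 and rose by 2.03 ± 0.18 (adjusted p = 0.0148). Htra1, a secreted serine protease, rose by 1.46 ± 0.15 (adjusted p = 0.0173), and Slc7a10, a transporter of serine and glycine, by 1.33 ± 0.20 (adjusted p = 0.0258). Maob, monoamine oxidase B, read 11.99 and 11.98 in the controls and 10.89 and 10.59 with FGF9, a fall of 1.24 ± 0.17 (adjusted p = 0.022). Ntsr2, a neurotensin receptor of astrocytes, read 10.81 and 10.75 in the controls and 9.41 and 9.44 with FGF9, a fall of 1.36 ± 0.14 (adjusted p = 0.0173), with groups that did not overlap. The water channel Aqp4 read 13.33 and 13.50 in the controls and 12.77 and 13.18 with FGF9, a difference of -0.44 ± 0.22 (adjusted p = 0.302) that did not pass. With the random block the list had 3 rises and 2 falls.

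In the oligodendrocyte lineage some genes of each stage rose and no measured member passed the test for a fall. Of 18 precursor markers 2 rose (median 0.64): Cspg4, the NG2 proteoglycan, read 6.24 and 7.42 in the controls and 7.88 and 9.18 with FGF9 and rose by 1.70 ± 0.14 (adjusted p = 0.0143), and Mmp16, a membrane metalloprotease, rose by 0.89 ± 0.14 (adjusted p = 0.0265). Cspg4 is also on the fibroblast, meningeal and pericyte list. Olig1, a factor of the whole lineage, read 10.47 and 10.30 in the controls and 11.11 and 12.15 with FGF9, a difference of 1.25 ± 0.28 (adjusted p = 0.0568) that did not pass, and Ptprz1, a receptor phosphatase, differed by 0.88 ± 0.19 (adjusted p = 0.0548). In both pairs 14 of the 18 were higher and 2 lower. The precursor marker Pdgfra, named after its value was seen, was among the lower, with a difference of -0.265 ± 0.168 (adjusted p = 0.409). The precursor count was 8 without pair 1. Of 15 genes of newly forming oligodendrocytes 3 rose (median 0.53), namely Bcas1, Enpp6, a choline phosphodiesterase, and Itpr2, a calcium channel of the endoplasmic reticulum, by 1.37 ± 0.24 (adjusted p = 0.0359), 1.48 ± 0.25 (adjusted p = 0.0325) and 0.80 ± 0.13 (adjusted p = 0.0295). Of 30 genes of myelin and mature oligodendrocytes 5 rose, with a median of 0.16, and with the random block 1 did. In both pairs 14 were higher and 7 lower. Car2, the cytosolic carbonic anhydrase of oligodendrocytes and astrocytes, read 7.73 and 7.46 in the controls and 9.77 and 10.45 with FGF9 and rose by 2.52 ± 0.28 (adjusted p = 0.0173). Fa2h and Ugt8, which make the galactolipids of myelin, rose by 1.03 ± 0.14 (adjusted p = 0.022) and 0.68 ± 0.14 (adjusted p = 0.0469), and Hapln2, a link protein at nodes of Ranvier, by 1.59 ± 0.30 (adjusted p = 0.039). Pllp, plasmolipin, rose by 0.80 ± 0.14 (adjusted p = 0.0335). Mbp differed by 0.26 ± 0.17 (adjusted p = 0.419), with pair differences of 0.52 and 0.00. Among the members lower in both pairs, named after their values were seen, Opalin differed by -0.95 ± 0.46 (adjusted p = 0.28) and Mobp by -0.68 ± 0.33 (adjusted p = 0.279), neither of which passed.

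Genes of neurons were described by list. The list of neurofilaments and axonal cytoskeleton fell in 11 of 30 measured members and rose in 0, with a median of -0.65. It also holds general markers of neurons that are not cytoskeletal, among them Elavl2 and Rbfox3 below. Nefm, the medium neurofilament chain, read 10.98 and 10.54 in the controls and 9.57 and 9.28 with FGF9, a fall of 1.33 ± 0.15 (adjusted p = 0.0173). Nefh, the heavy chain, fell by 1.19 ± 0.13 (adjusted p = 0.0173) and Nefl by 0.93 ± 0.16 (adjusted p = 0.0318). The neuronal RNA-binding protein Elavl2 read 9.81 and 9.93 in the controls and 8.39 and 8.60 with FGF9, a fall of 1.38 ± 0.13 (adjusted p = 0.0163). Rbfox3, the antigen NeuN of neuronal nuclei, read 9.12 and 11.41 in the controls and 7.94 and 10.32 with FGF9, a fall of 1.14 ± 0.14 (adjusted p = 0.0195), with the FGF9 array of pair 2 above the control of pair 1. Kif5a, an axonal kinesin, fell by 0.89 ± 0.14 (adjusted p = 0.0275) and Stmn3, a microtubule regulator, by 0.84 ± 0.14 (adjusted p = 0.0299). Without pair 2 the count of falls was 7, and with the random block it was 3, beside 1 rise.

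Of 42 genes of the synaptic vesicle and its release 20 fell and 0 rose, with a median of -0.80 (-0.74 and -0.90 in the pairs). Syt2, a calcium sensor of fast release, read 9.63 and 10.52 in the controls and 8.15 and 9.15 with FGF9 and fell by 1.42 ± 0.13 (adjusted p = 0.016). Synpr, synaptoporin of the vesicle membrane, read 10.53 and 10.97 in the controls and 9.46 and 9.67 with FGF9 and fell by 1.19 ± 0.14 (adjusted p = 0.0187). Cplx1, complexin, fell by 1.10 ± 0.13 (adjusted p = 0.0195), Vamp1, a vesicle SNARE, by 1.09 ± 0.14 (adjusted p = 0.0209), Syt5 by 1.15 ± 0.14 (adjusted p = 0.0195) and Chgb, chromogranin B of dense-core vesicles, by 1.01 ± 0.13 (adjusted p = 0.0205). The mean level of the list was 9.29 and 10.31 in the controls and 8.68 and 9.53 with FGF9. In 10 of the 42 genes both FGF9 arrays lay below both controls, against 11.3% of all genes. Without pair 2 the count of falls was 8, and with the random block it was 5.

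Among the enzymes and transporters of transmitters 7 of 21 fell and 1 rose (median -0.37). Gad1 and Gad2, which make GABA, read 10.03 and 10.49 in the controls and 9.13 and 9.71 with FGF9 and 10.43 and 11.79 in the controls and 9.47 and 10.49 with FGF9, falls of 0.84 ± 0.14 (adjusted p = 0.0316) and 1.12 ± 0.15 (adjusted p = 0.021). Slc6a5, the neuronal glycine transporter, fell by 1.07 ± 0.14 (adjusted p = 0.0199), and Slc17a6, the vesicular glutamate transporter of the spinal cord, by 0.93 ± 0.15 (adjusted p = 0.0295). Nos1, neuronal nitric oxide synthase, fell by 0.97 ± 0.17 (adjusted p = 0.0362). Slc18a3, the vesicular acetylcholine transporter, read 5.04 and 4.96 in the controls and 5.68 and 5.85 with FGF9, a rise of 0.77 ± 0.14 (adjusted p = 0.037) at levels near the low end of the arrays. Leaving out either pair gave 3 falls, and the random block gave 2. Of 36 receptors for glutamate, GABA and glycine 11 fell and 0 rose (median -0.59), and with the random block 2 fell. Grin1, the obligatory NMDA receptor subunit, read 9.43 and 10.33 in the controls and 8.45 and 9.38 with FGF9, a fall of 0.96 ± 0.13 (adjusted p = 0.0219), and Grin2b fell by 1.36 ± 0.15 (adjusted p = 0.0173). Glra1, the adult glycine receptor subunit, read 10.42 and 11.15 in the controls and 9.24 and 10.16 with FGF9, a fall of 1.08 ± 0.14 (adjusted p = 0.0199). The metabotropic receptor Grm7, the kainate receptor subunit Grik1 and the GABA-B subunit Gabbr2 fell by 1.50 ± 0.18 (adjusted p = 0.019), 1.23 ± 0.16 (adjusted p = 0.021) and 1.06 ± 0.13 (adjusted p = 0.0195).

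Ion channels of excitable membranes came next. Of 33 voltage-gated sodium and calcium channel genes 13 fell and 1 rose, with a median of -0.74. Scn1a, Scn2a and Scn3a, the brain sodium channels, read 10.10 and 10.32 in the controls and 9.04 and 9.14 with FGF9, 9.76 and 10.37 in the controls and 8.56 and 9.07 with FGF9 and 8.68 and 9.80 in the controls and 7.86 and 8.77 with FGF9. They fell by 1.12 ± 0.15 (adjusted p = 0.021), 1.25 ± 0.14 (adjusted p = 0.0173) and 0.92 ± 0.14 (adjusted p = 0.0254). The calcium channels Cacna1e (R-type) and Cacna1g (T-type) fell by 1.29 ± 0.14 (adjusted p = 0.0173) and 1.13 ± 0.14 (adjusted p = 0.0199), and the accessory subunit Cacna2d3 by 0.95 ± 0.14 (adjusted p = 0.0237). The count of falls was 6 without pair 2 and 5 with the random block. Of 53 potassium channel genes 13 fell and 4 rose (median -0.30), and with the random block 3 fell and 1 rose. Kcnc1, the fast-spiking channel Kv3.1, fell by 1.21 ± 0.16 (adjusted p = 0.0209), Kcnj3, a G protein-gated channel, by 1.24 ± 0.18 (adjusted p = 0.0237), Kcnk9, a background channel, by 1.34 ± 0.17 (adjusted p = 0.0199) and Kcnb2 by 1.61 ± 0.22 (adjusted p = 0.022). Kcnj8, an ATP-sensitive channel of pericytes and muscle, read 6.10 and 5.61 in the controls and 7.02 and 7.15 with FGF9, a rise of 1.23 ± 0.18 (adjusted p = 0.0254).

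Transcription factors and peptides of neurons were examined separately. Of 38 transcription factors of spinal cord neurons 4 fell and 0 rose (median -0.21), namely Ebf1, Ebf3, Pax8 and Lhx5, by 1.00 ± 0.16 (adjusted p = 0.0291), 1.33 ± 0.16 (adjusted p = 0.0193), 1.01 ± 0.19 (adjusted p = 0.0401) and 0.78 ± 0.15 (adjusted p = 0.0445). With the random block 2 of that list fell. Neuropeptides and their processing enzymes had 1 fall in 23, and 0 with the random block. It was that of Scg5, the chaperone of prohormone convertase, by 1.16 ± 0.14 (adjusted p = 0.0195). The 1 fall is 4.35% of the list, close to the 3.31% of all genes. Of 22 measured Hox genes, which set position along the body axis, 17 were lower in both pairs and 0 higher in both, against 29.9% and 33.1% of all genes. The 4 that fell were Hoxa5, Hoxb8, Hoxd9 and Hoxd10. Hoxa5 read 10.80 and 11.33 in the controls and 9.64 and 10.41 with FGF9, a fall of 1.04 ± 0.14 (adjusted p = 0.022), and Hoxb8 read 7.58 and 9.25 in the controls and 6.63 and 8.06 with FGF9, a fall of 1.07 ± 0.19 (adjusted p = 0.0329). The Hox median was -0.45, with -0.29 in pair 1 and -0.67 in pair 2.

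Genes of motile cilia, the beating organelles of ependymal cells, read lower with FGF9, with a larger median difference in pair 2. Of 62 measured genes 12 fell and 0 rose, with a median of -0.71 (-0.45 in pair 1 and -1.13 in pair 2). Spag6l, of the central apparatus of the axoneme, read 7.60 and 9.96 in the controls and 5.92 and 7.40 with FGF9, a fall of 2.12 ± 0.23 (adjusted p = 0.0173). Clxn, the dynein regulator calaxin, read 8.93 and 10.44 in the controls and 7.10 and 8.15 with FGF9, a fall of 2.06 ± 0.20 (adjusted p = 0.0169). Drc12, of the nexin-dynein regulatory complex and not on the list, read 7.12 and 8.67 in the controls and 5.91 and 6.19 with FGF9, a fall of 1.84 ± 0.29 (adjusted p = 0.0276). Dnai4 and Ccdc39, which serve the dynein arms and their spacing, fell by 1.62 ± 0.15 (adjusted p = 0.0163) and 1.25 ± 0.16 (adjusted p = 0.0201), Spaca9 by 1.43 ± 0.13 (adjusted p = 0.0159) and Cfap126 by 1.33 ± 0.15 (adjusted p = 0.0175). Foxj1, the master factor of motile ciliogenesis, read 7.40 and 7.61 in the controls and 6.96 and 6.88 with FGF9, a difference of -0.59 ± 0.14 (adjusted p = 0.068) that did not pass. The count of falls was 34 without pair 1 and 11 without pair 2. Of 17 ependymal and choroid plexus markers 2 fell, Kcnj13 and Folr1, a folate receptor, which read 6.95 and 8.07 in the controls and 5.89 and 6.08 with FGF9, a fall of 1.52 ± 0.25 (adjusted p = 0.0291). The summed linear level of that list was 7490 and 2470 in the controls and 4560 and 2124 with FGF9.

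Ciliary promoters are shown because the X-box, the motif of RFX factors that work beside FOXJ1, was in 11 of 49 promoters of the cilia list (22.4%) against 3.43% of all promoters. Upstream matches are printed for Dynlrb2, a dynein light chain, and Ccdc65, of the nexin-dynein regulatory complex, in chr19:61429021-61429079 on the plus strand for Dynlrb2 and chr7:131735989-131736061 on the plus strand for Ccdc65 (GRCr8, RefSeq), with the match in capitals.
Dynlrb2: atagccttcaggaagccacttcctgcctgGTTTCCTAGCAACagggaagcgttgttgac
Ccdc65: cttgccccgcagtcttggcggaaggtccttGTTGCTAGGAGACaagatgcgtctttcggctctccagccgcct
Dynlrb2 read 5.66 and 7.11 in the controls and 4.99 and 4.98 with FGF9, a difference of -1.40 ± 0.34 (adjusted p = 0.0664), and Ccdc65, chosen for its promoter after the values were seen, read 7.23 and 7.58 in the controls and 6.55 and 6.81 with FGF9, a difference of -0.72 ± 0.16 (adjusted p = 0.055). Neither passed, although both were lower in each pair. Among all 377 genes that fell and have a promoter, the X-box was in 3.71%, close to its share in all promoters. Its share in the cilia list depends on which genes were listed, not on how they changed.

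Cell cycle genes read higher with FGF9, again with a larger median difference in pair 2. Of 71 measured 7 rose and 0 fell, with a median of 0.52 (0.22 in pair 1 and 0.81 in pair 2), and 46 were higher in both pairs, against 33.1% of all genes. Nusap1 and Prc1, which bundle the microtubules of the spindle, read 6.53 and 6.01 in the controls and 7.81 and 7.67 with FGF9 and 8.12 and 7.14 in the controls and 9.28 and 8.71 with FGF9. They rose by 1.47 ± 0.16 (adjusted p = 0.0173) and 1.36 ± 0.15 (adjusted p = 0.0178). Kif23, a kinesin of cytokinesis, rose by 0.90 ± 0.14 (adjusted p = 0.0276), Cdk6, a partner of cyclin D, by 0.90 ± 0.16 (adjusted p = 0.0359) and the inhibitor locus Cdkn2a by 0.95 ± 0.18 (adjusted p = 0.0381). Without pair 1 the count was 32, and without pair 2 and with the random block it was 3. The E2F motif TTCCCGC was in 12 of 56 promoters of the list (21.4%) against 6.39% of all, and in 7.47% of the genes that rose. The list's share depends on which genes were put in it, not on how they changed.

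Genes of glycolysis and the hypoxia response rose in 8 of 50 measured members and fell in 0, with a median of 0.34. Vegfa, the vascular growth factor, read 10.06 and 10.27 in the controls and 11.36 and 11.73 with FGF9 and rose by 1.38 ± 0.14 (adjusted p = 0.0173). Slc16a3, the lactate exporter MCT4, read 8.59 and 6.27 in the controls and 9.90 and 8.43 with FGF9 and rose by 1.74 ± 0.26 (adjusted p = 0.0259). Egln1, the prolyl hydroxylase that senses oxygen, rose by 0.75 ± 0.13 (adjusted p = 0.035), P4ha1, a collagen prolyl hydroxylase, by 0.79 ± 0.14 (adjusted p = 0.0359) and Ddit4, an inhibitor of mTOR, by 0.91 ± 0.17 (adjusted p = 0.0419). The hypoxia response motif TACGTG was in 14 of 44 promoters of this list (31.8%) against 3.67% of all, and in 3.20% of the genes that rose. The share in the list depends on which genes were listed, not on how they changed. Without pair 2 the count of rises was 5.

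Carbonic anhydrases and other carriers of ions changed in 54 measured genes with 6 rises and 3 falls. Beside Car9 and Car2, Car6 rose by 1.43 ± 0.24 (adjusted p = 0.0309), while Car3 fell by 1.16 ± 0.20 (adjusted p = 0.0357). Slc12a5, the chloride exporter KCC2 of neurons, read 9.69 and 10.36 in the controls and 7.82 and 9.34 with FGF9, a fall of 1.45 ± 0.23 (adjusted p = 0.0275), and Slc4a10, a neuronal bicarbonate transporter, fell by 1.26 ± 0.19 (adjusted p = 0.0252). In amino acid metabolism 4 of 60 genes rose and 4 fell, 6.67% each, beside 3.12% and 3.31% of all genes. Slc7a11, the cystine-glutamate exchanger, read 12.08 and 12.46 in the controls and 10.87 and 11.10 with FGF9, a fall of 1.28 ± 0.20 (adjusted p = 0.0275), and Prodh, proline dehydrogenase, fell by 1.43 ± 0.26 (adjusted p = 0.0373). Cth, which makes cysteine, rose by 1.16 ± 0.17 (adjusted p = 0.0237), Gatm, the first enzyme of creatine synthesis, by 1.22 ± 0.19 (adjusted p = 0.0275) and Mthfd2, a mitochondrial folate enzyme, by 0.80 ± 0.14 (adjusted p = 0.0339). Of 59 genes of glutathione, sulfation and detoxification 5 fell, among them Gstm7 by 0.77 ± 0.14 (adjusted p = 0.0381) and the brain sulfotransferase-like Sult4a1 by 0.91 ± 0.13 (adjusted p = 0.0237), and 1 rose, Gstp1, by 0.74 ± 0.15 (adjusted p = 0.049). The rises of that list numbered 7 without pair 1 and 0 with the random block.

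Genes of the extracellular matrix changed in both directions. Of 51 measured proteoglycans, hyaluronan genes and other matrix proteins 9 rose and 3 fell, with a median of 0.20. Ncan, the chondroitin sulfate proteoglycan neurocan made by astrocytes, read 9.73 and 10.84 in the controls and 11.67 and 12.43 with FGF9 and rose by 1.77 ± 0.15 (adjusted p = 0.0143). Collagens had 1 rise, Col5a3, by 1.07 ± 0.17 (adjusted p = 0.0291), and 1 fall, Col14a1, by 1.16 ± 0.14 (adjusted p = 0.019), in 24 measured. That is 4.17% in each direction, close to the 3.12% and 3.31% of all genes. Of 41 proteases and their inhibitors 7 rose and 0 fell. Adamts4, which like Adamts1 cleaves aggrecan-type proteoglycans, read 8.85 and 7.33 in the controls and 10.37 and 9.28 with FGF9 and rose by 1.74 ± 0.16 (adjusted p = 0.0163). Timp4, a metalloprotease inhibitor, read 8.64 and 9.06 in the controls and 10.24 and 11.13 with FGF9 and rose by 1.83 ± 0.19 (adjusted p = 0.0173), and Serpine2, an inhibitor of thrombin, rose by 1.07 ± 0.17 (adjusted p = 0.0291). Without pair 1 the rises numbered 15 for matrix and 11 for proteases, and without pair 2 those of proteases numbered 4.

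Contacts and the cytoskeleton gave large single changes. Gja5, the gap junction protein connexin 40, read 5.98 and 6.15 in the controls and 8.66 and 8.88 with FGF9 and rose by 2.71 ± 0.13 (adjusted p = 0.00413), with the 4 readings in 2 tight groups. In 53 measured adhesion genes 6 rose and 9 fell (median 0.00), and with the random block 5 rose and 4 fell. L1cam, a contact protein of axons that is also on the Schwann cell list, read 8.72 and 10.73 in the controls and 7.49 and 9.51 with FGF9, a fall of 1.23 ± 0.17 (adjusted p = 0.0216). The cadherin Cdh8 and the contactin family genes Cntnap4 and Cntn6 fell by 1.55 ± 0.17 (adjusted p = 0.0173), 1.31 ± 0.14 (adjusted p = 0.0173) and 1.20 ± 0.15 (adjusted p = 0.0199). Itgb4, the laminin receptor subunit of hemidesmosomes, fell by 1.43 ± 0.18 (adjusted p = 0.0205). Intermediate filament and actin genes rose in 6 of 34 and fell in 1, with 12 rises without pair 1 and 3 without pair 2. Krt8, the partner of keratin 18, read 7.17 and 6.10 in the controls and 8.62 and 7.69 with FGF9 and rose by 1.52 ± 0.18 (adjusted p = 0.0189). The contractile proteins Tagln, Cnn1 and Tpm2 rose by 1.18 ± 0.19 (adjusted p = 0.0278), 1.06 ± 0.17 (adjusted p = 0.0291) and 1.08 ± 0.17 (adjusted p = 0.0273), and Synm, synemin, fell by 0.96 ± 0.19 (adjusted p = 0.0435). S100a1, a calcium-binding protein, was the one fall in 15 S100 genes, by 1.28 ± 0.14 (adjusted p = 0.0173), a call not made with the random block. The 1 fall is 6.67% of the list, beside 3.31% of all genes.

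**Figure D3:**
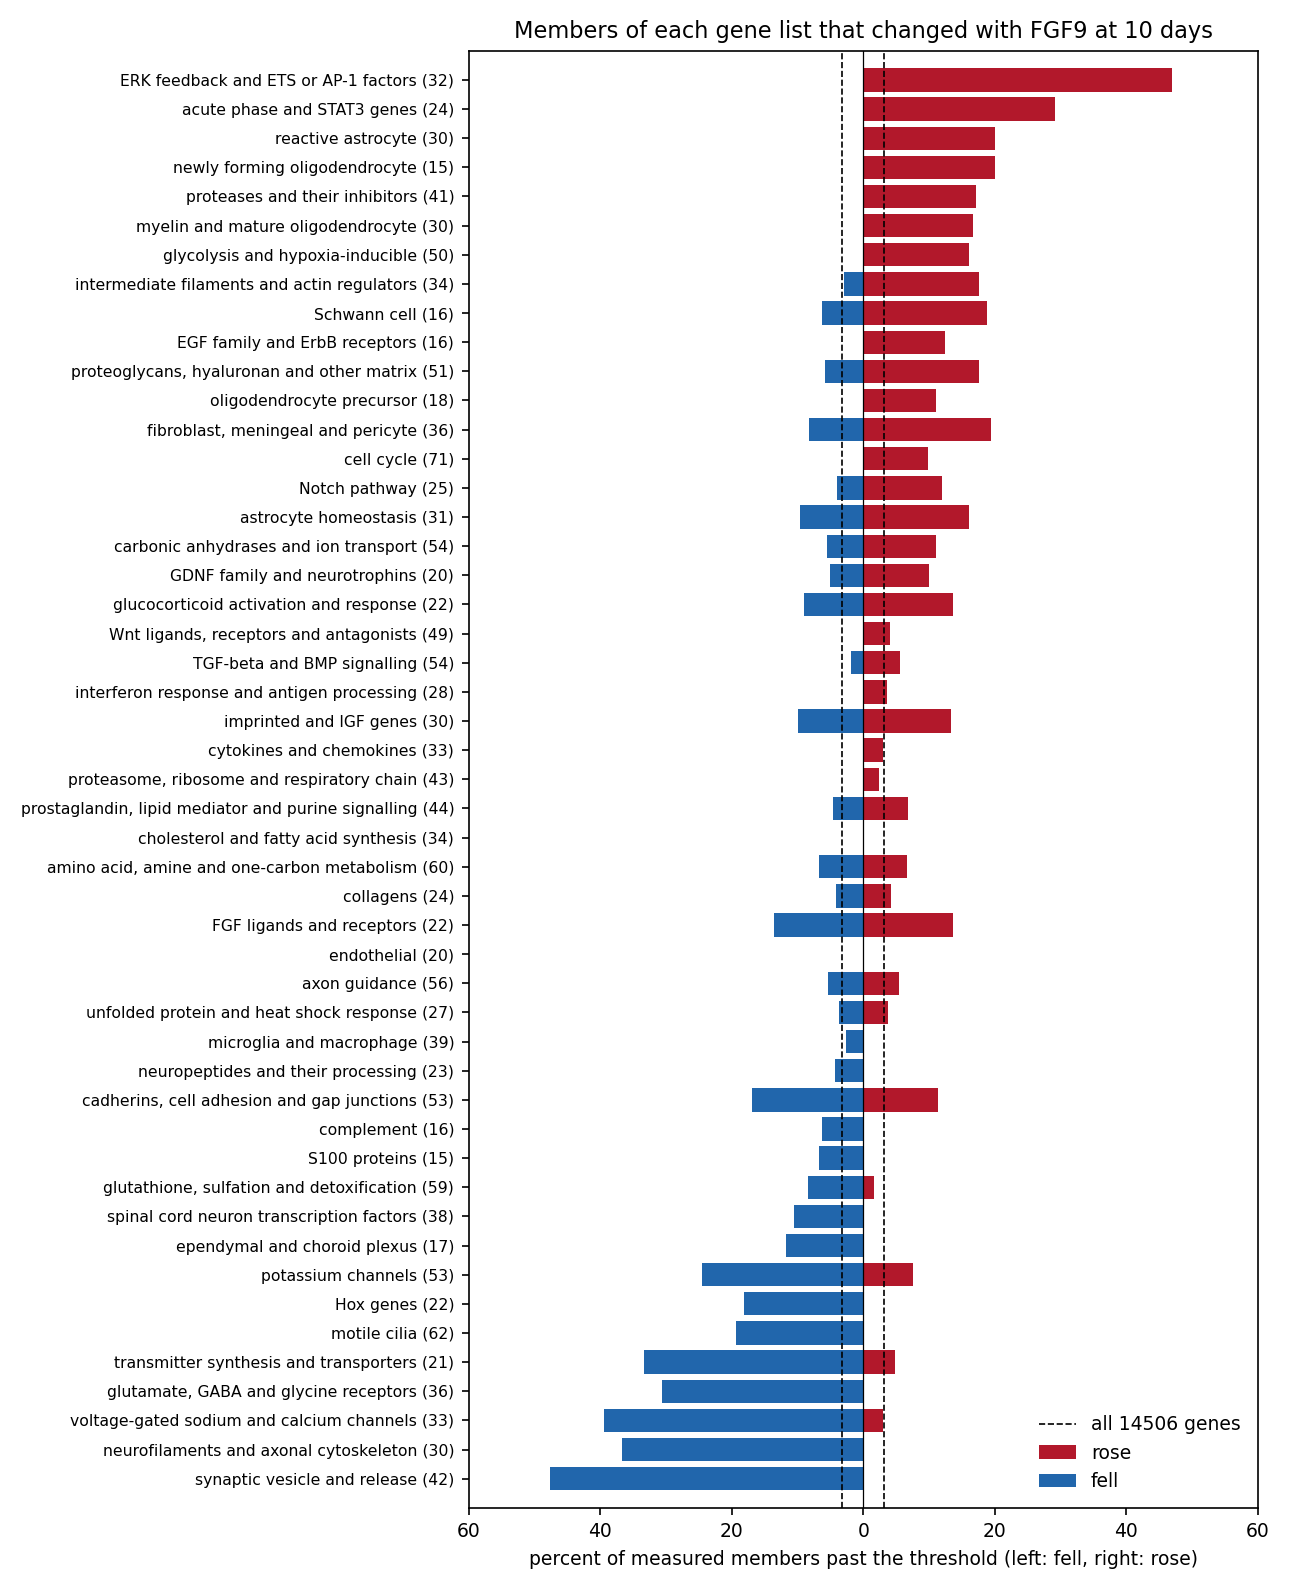
Percentage of the measured members of each of 49 gene lists (number measured in parentheses) that rose (red, to the right) or fell (blue, to the left) with FGF9 at 10 days; dashed lines mark the percentages over all 14506 genes, 3.12 rising and 3.31 falling. ERK feedback genes stand at the top with 46.9% rising, and synaptic vesicle genes at the bottom with 47.6% falling.

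Secreted signals and their receptors were compared by pathway. In the EGF family 2 of 16 rose: Hbegf, a ligand of the EGF receptor, read 8.10 and 7.81 in the controls and 10.75 and 9.28 with FGF9 and rose by 2.06 ± 0.28 (adjusted p = 0.022), and Errfi1, a feedback inhibitor of that receptor, rose by 1.20 ± 0.25 (adjusted p = 0.0476). In the GDNF and neurotrophin list Ptn, the growth factor pleiotrophin, rose by 1.19 ± 0.18 (adjusted p = 0.0253), beside Gfral, while the neurturin receptor Gfra2 fell by 0.82 ± 0.14 (adjusted p = 0.0329), in 20 measured. Gdf15, the ligand of Gfral, read 5.41 and 5.68 in the controls and 7.33 and 6.38 with FGF9, a difference of 1.31 ± 0.28 (adjusted p = 0.0534) that did not pass. Of 49 Wnt pathway genes 2 rose, the ligand Wnt7b and the coreceptor Lrp5, by 1.69 ± 0.18 (adjusted p = 0.0173) and 1.74 ± 0.14 (adjusted p = 0.0124). That is 4.08% with a median of 0.00, close to the 3.12% of all genes that rose, and 0 fell. In the Notch pathway Notch3, Notch4 and the feedback regulator Nrarp rose by 1.60 ± 0.23 (adjusted p = 0.0248), 1.42 ± 0.21 (adjusted p = 0.0264) and 2.03 ± 0.28 (adjusted p = 0.022), and the neuronal ligand Dner fell by 0.72 ± 0.13 (adjusted p = 0.0372), in 25 measured. TGF-beta and BMP genes gave 3 rises in 54, Ltbp1, Smad9 and Tgfb3, by 0.93 ± 0.14 (adjusted p = 0.0248), 1.24 ± 0.21 (adjusted p = 0.0308) and 0.94 ± 0.19 (adjusted p = 0.0449). The single fall was that of Id3, a target of BMP receptors, by 1.01 ± 0.17 (adjusted p = 0.0293), a call not made with the random block. These shares, 5.56% and 1.85%, stand beside 3.12% and 3.31% of all genes. In axon guidance Sema3e, Sema5b and Sema7a rose by 1.16 ± 0.17 (adjusted p = 0.0253), 0.91 ± 0.16 (adjusted p = 0.0347) and 1.39 ± 0.26 (adjusted p = 0.0395), and Slit1, Robo2 and Efnb2 fell by 0.93 ± 0.18 (adjusted p = 0.0419), 0.94 ± 0.15 (adjusted p = 0.0275) and 0.87 ± 0.18 (adjusted p = 0.0463), in 56 measured. Rises and falls were each 5.36%, near the shares over all genes, with a median of 0.05. Without pair 1 the rises numbered 11 for TGF-beta and BMP genes and 8 for axon guidance.

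Insulin-like growth factor binding proteins and imprinted genes changed in both directions, with 4 of 30 higher and 3 lower. Igfbp3 read 7.50 and 6.92 in the controls and 10.50 and 9.24 with FGF9 and rose by 2.66 ± 0.19 (adjusted p = 0.0107), and Igfbp4 rose by 1.39 ± 0.19 (adjusted p = 0.0222). Igf1r, the receptor, rose by 0.90 ± 0.14 (adjusted p = 0.0272). The imprinted non-coding RNA Meg3 moved opposite to H19: it read 10.42 and 9.57 in the controls and 8.28 and 8.13 with FGF9 and fell by 1.78 ± 0.19 (adjusted p = 0.0173). The imprinted gene Nnat fell by 0.99 ± 0.13 (adjusted p = 0.0219). In the glucocorticoid list 3 of 22 rose and 2 fell, where the mineralocorticoid receptor Nr3c2 fell by 0.75 ± 0.15 (adjusted p = 0.0474). Rises of the glucocorticoid list numbered 8 without pair 1 and 1 without pair 2. With the random block 1 of the imprinted list fell and 1 of the glucocorticoid list.

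Few inflammatory ligands passed the test. Of 33 cytokines and chemokines 1 rose and 0 fell, a share close to that of all genes: Cxcl13, a chemokine of B cells, read 6.13 and 5.30 in the controls and 6.95 and 6.72 with FGF9, a rise of 1.12 ± 0.20 (adjusted p = 0.036). Ccl7 read 6.76 and 5.57 in the controls and 11.18 and 6.95 with FGF9 and differed by 2.90 ± 0.81 (adjusted p = 0.0932), and Ccl2 by 1.54 ± 0.53 (adjusted p = 0.149), neither of which passed. C3 was the single change in 16 complement genes, 6.25% of them, beside the 3.31% of all genes that fell. Of 28 interferon and antigen-processing genes Tap1, a peptide transporter, rose by 0.87 ± 0.16 (adjusted p = 0.0396), and Mx2 differed by -1.18 ± 0.26 (adjusted p = 0.0564). The 1 rise is 3.57% of that list, close to the 3.12% of all genes. In the list of prostaglandins, lipid mediators and purines the prostaglandin receptor Ptger3, the ecto-nucleotidase Nt5e and the prostaglandin F receptor regulator Ptgfrn rose by 1.30 ± 0.14 (adjusted p = 0.0173), 1.74 ± 0.31 (adjusted p = 0.036) and 1.17 ± 0.23 (adjusted p = 0.0436). Ptgds and the phospholipase Pla2g7 fell by 1.04 ± 0.13 (adjusted p = 0.0197) and 0.98 ± 0.14 (adjusted p = 0.0221), in 44 measured. The shares that rose and fell, 6.82% and 4.55%, stand beside 3.12% and 3.31% of all genes. With the random block 0 of that list fell.

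Markers of cells that can accompany such cultures were summed in each array. The 39 markers of microglia and macrophages read 25119 and 13810 in summed linear level in the controls and 21566 and 20290 with FGF9. Their median difference was -0.64 in pair 1 and 0.23 in pair 2. Gpr34 was the 1 member that fell, by 0.91 ± 0.18 (adjusted p = 0.0425), and 0 fell with the random block. The 1 fall is 2.56% of the list, no larger than the 3.31% of all genes. The 20 endothelial markers gave 0 changes in limma (3 at an unadjusted p under 0.05, and 0 without the block) and summed to 2455 and 944 against 1318 and 1335. In the fibroblast, meningeal and pericyte list 7 of 36 rose and 3 fell, where the pericyte regulator Rgs5 read 6.04 and 5.64 in the controls and 8.20 and 7.66 with FGF9 and rose by 2.09 ± 0.15 (adjusted p = 0.0107). The median of that list was -0.32 in pair 1 and 0.15 in pair 2. Of 16 Schwann cell markers Dhh, desert hedgehog, read 5.32 and 5.40 in the controls and 7.92 and 8.29 with FGF9 and rose by 2.74 ± 0.34 (adjusted p = 0.0195), and the peripheral myelin genes Pmp2 and Pmp22 rose by 2.15 ± 0.35 (adjusted p = 0.0291) and 1.52 ± 0.30 (adjusted p = 0.0426). The list also held 1 fall, that of L1cam, and 9 of its members had a lower mean with FGF9, with a median of -0.02. What share these cell types had in the changes above was not tested.

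**Figure D4:**
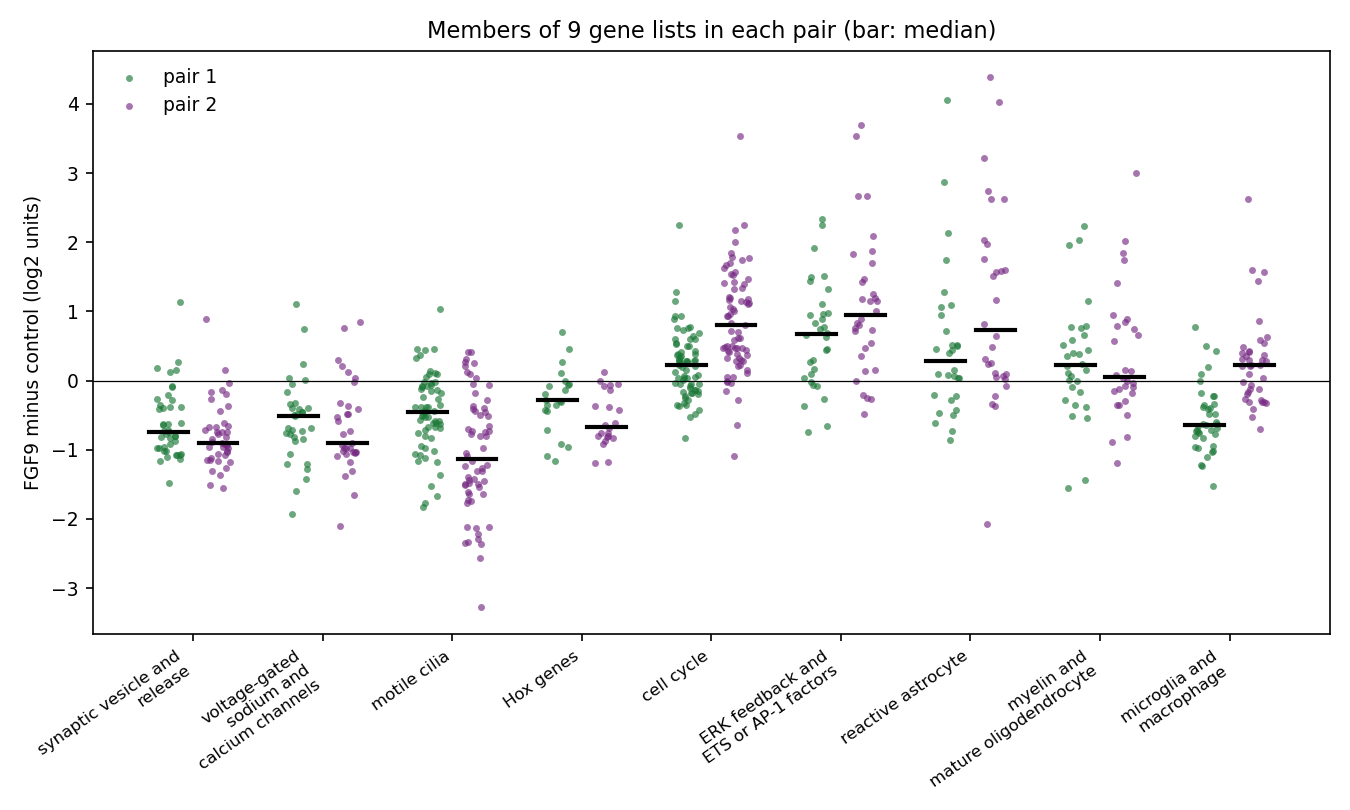
Difference of each member of 9 gene lists (FGF9 minus control, log2 units) in pair 1 (green) and pair 2 (purple), with a bar at the median of each column. Synaptic, channel, cilia and Hox columns lie mostly below 0 in both pairs, while the microglial column has its median at -0.64 in pair 1 and 0.23 in pair 2.

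Few members of the next lists passed the test. Cholesterol and fatty acid synthesis had 0 changes in 34 measured genes in limma (median 0.05, 4 at an unadjusted p under 0.05). The smallest p was that of Dhcr7, the last enzyme of cholesterol synthesis, with a difference of 0.72 ± 0.21 (adjusted p = 0.108). The proteasome, ribosome and respiratory chain list had 1 rise in 43, Rps18, by 0.74 ± 0.14 (adjusted p = 0.0408). The share, 2.33%, is no larger than the 3.12% of all genes that rose. Grouped by symbol, the ribosomal protein genes read slightly higher with few calls: 40 of 43 Rpl genes were higher in both pairs (median 0.35, 0 rises) and 27 of 33 Rps genes (median 0.38, 1 rise), against 33.1% and a median of 0.02 over all genes. In the unfolded protein and heat shock response Manf, a secreted stress protein of the endoplasmic reticulum, rose by 0.83 ± 0.15 (adjusted p = 0.0357) and Hsph1, a heat shock protein, fell by 0.68 ± 0.13 (adjusted p = 0.0419), in 27 measured. That is 3.7% in each direction, close to the 3.12% and 3.31% of all genes. No count above survived the removal of the pair block, since limma then called 0 genes.

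Genes were also grouped by symbol. Of 179 families with 10 or more measured members, 72 had no member past the threshold. Over all genes 6.43% passed, 3.12% higher and 3.31% lower, so a small family with no call need not differ from the rest. The families named next were picked as the largest shares among the 179, as a description. The largest falling shares were those of the sodium channels (Scn, 7 of 11), the calcium channels (Cacna, 5 of 12), the cilia and flagella associated proteins (Cfap, 4 of 12), the serotonin receptors (Htr, 4 of 14) and the sulfotransferases (Sult, 3 of 11). Among these Cacna and Htr had 1 rise each, and 7 of the 11 Sult genes had a higher mean with FGF9 (median 0.03). The largest rising shares were those of the carbohydrate sulfotransferases (Chst, 3 of 11), the carbonic anhydrases (Car, 3 of 15), the semaphorins (Sema, 3 of 16), and the ADAMTS proteases and metal-dependent phosphatases (Adamts and Ppm, each 2 of 11). Car and Ppm had 1 fall each, and 6 of the 11 Adamts genes and 6 of the 11 Ppm genes had a lower mean (medians -0.04 and -0.04). Every measured Chst gene, 11 of 11, had a mean above its control mean, and 0 Chst genes fell. In 8 of the 11 both pairs were higher, and in 3 the pairs had opposite signs.

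The 10-day effect was set against that at 24 h by the test of the difference, in which 7 genes passed (0.0483% of those tested), namely Car9, Chi3l1, Fndc3c1, Gfral, Gja5, Sectm1b and Serpina3n. All rose at 10 days. Chi3l1, a secreted chitinase-like protein of reactive astrocytes named here after its value was seen, read 9.52 and 10.25 in the controls and 12.44 and 13.02 with FGF9, a rise of 2.84 ± 0.17 (adjusted p = 0.0065). Their differences at 24 h lay between -0.66 (Serpina3n) and 0.64 (Sectm1b). Over the 453 genes that rose, the median difference was 1.05 at 10 days and 0.24 at 24 h, and over the 480 that fell it was -0.97 and -0.30, as a description of genes chosen at 10 days.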

How the data were processed

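Each array is a column of the deposited table, with 1 value for each feature. The submitters' processing notes name Partek 6.5 and GCRMA as what the authors used to make these values, and the log2 scale of the deposited values was read from their range, 3.61 to 14.65. No source used here gives further steps or a genome build. Array medians lay between 6.62 and 6.73, and no further normalization was applied.

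Of 29214 features, 15310 carried 1 symbol in the platform annotation, 323 several and 13581 none. Features with 1 symbol were kept, and 15279 of them matched the RefSeq gene table by Entrez identifier. The feature with the highest mean stood for each of 527 genes with more than 1, which left 14506 genes. With 2 arrays per group, the number of arrays limits the precision.

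Differences came from limma 3.58.1 (lmFit and eBayes, R 4.3.3) over all 8 arrays, with a mean per group and the pair (same time and replicate number) as a fixed block. This left 2 residual degrees of freedom, to which 3.96 prior ones were added. Benjamini-Hochberg adjustment ran over all genes at a threshold of 0.05. The block was used because same-numbered arrays were to be compared. Same-numbered arrays deviated together from their group means (r = 0.757 across genes for 24 h, 0.819 for 10 days). The median residual SD was 0.145 with the block and 0.30 without it.

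The fit was tested on simulated data for these 14506 genes. For FGF9 against control at 10 days it called 95 of 100 genes shifted by 1 log2 unit and 99 of 100 shifted by 2, and 20 that had not been shifted. With no block the calls were 0 and 15. Whether the real arrays vary as these data do was not tested, and neither was the share of wrong calls among the real genes.

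The 49 gene lists (1998 entries, 1699 measured) and the comparison itself were chosen with earlier results of these data known, so each list's count is a description. Named genes are the 15 largest rises and the 15 largest falls among genes past the threshold that moved alike in both pairs, up to 6 members of each list by unadjusted p, and genes always named (Fgf9, its receptors, Mbp, Gfap, Aqp4, Nefl, Foxj1 and H19). Loci without a standard name were skipped, and exceptions are marked where they occur. Promoter sequences and motifs come from the RefSeq table of build GRCr8, matched by Entrez identifier for 11951 genes. Alternatives were other blocks, left-out pairs, normalizations, a filter on dim features, means of features and limma's trend and robust options.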

Additional observations from a re-analysis of the deposited data

Results flagged for a closer look

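The test of the difference between the FGF9 effect at 10 days and that at 24 h singled out 7 genes named above, all with a larger effect at 10 days. The difference between the effects was 4.879 ± 0.34 log2 units (SE, limma adjusted p = 0.034) for Serpina3n, 3.844 ± 0.29 log2 units (SE, limma adjusted p = 0.034) for Car9 and 3.295 ± 0.22 log2 units (SE, limma adjusted p = 0.034) for Sectm1b. It was 3.285 ± 0.20 log2 units (SE, limma adjusted p = 0.034) for Gfral, 3.132 ± 0.26 log2 units (SE, limma adjusted p = 0.0397) for Fndc3c1, 3.034 ± 0.24 log2 units (SE, limma adjusted p = 0.0397) for Chi3l1 and 2.523 ± 0.18 log2 units (SE, limma adjusted p = 0.034) for Gja5. At 24 h Serpina3n read 5.99 and 6.93 in the controls and 5.80 and 5.80 with FGF9, so both FGF9 arrays were below their controls there. Car9 read 5.53 and 5.50 in the controls and 5.44 and 5.99 with FGF9, with no common direction in the pairs. Sectm1b read 5.34 and 6.09 in the controls and 6.02 and 6.68 with FGF9, higher with FGF9 in both pairs at 24 h as well as at 10 days. In Fndc3c1 the 10-day level of pair 2 was above that of pair 1 in control and FGF9 arrays alike. Without the pair block limma called 0 genes in this test, and without replicate 1 at 10 days it called 322.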

How the results depend on the processing

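The count of changed genes depended on the pairing. With no replicate block limma called 0 genes in either direction (816 at an unadjusted p under 0.05), and 0 for the difference between times, and none of the 212 named genes that had passed did so. With the block as a random effect it called 605 genes, 388 higher and 217 lower, of which 515 were among the 933. With the 10-day arrays alone it called 469, 238 higher and 231 lower. Leaving out 1 pair at 10 days gave 569 to 1506 genes, 246 to 944 of them higher and 323 to 562 lower, and 9 to 322 for the difference between times. In those fits the remaining pair is assumed to vary like the 24 h pairs. Without replicate 1 the sign turned for Fgfr2 (-0.285) and Gfap (0.254), neither of which had passed, and 21 named genes no longer passed. Without replicate 2 that number was 76. Quantile normalization, a filter on dim features, means of features and the trend and robust options gave 925 to 1187 genes. Subtracting array medians gave 962 and moved the median of all genes to 0.07, and 57.6% of the calls were then higher against 48.6%. Under quantile normalization 1 named gene lost its call, with medians subtracted 4 and with the trend and robust options 2. Signal over background limits low readings, such as the controls of Serpina3n and Car9.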

Other observations

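Genes outside the 49 lists, named here after their values were seen, add further changes. Both chains of the interleukin-1 receptor rose: Il1r1 read 8.70 and 6.55 in the controls and 10.03 and 9.12 with FGF9, a rise of 1.95 ± 0.29 (adjusted p = 0.0251), and its accessory protein Il1rap read 9.08 and 7.59 in the controls and 11.06 and 10.40 with FGF9, a rise of 2.40 ± 0.26 (adjusted p = 0.0173). Dio2, the deiodinase by which astrocytes make active thyroid hormone, read 6.22 and 6.63 in the controls and 8.68 and 8.46 with FGF9, a rise of 2.14 ± 0.19 (adjusted p = 0.0148), and Crym, a cytosolic binding protein of that hormone, rose by 1.99 ± 0.19 (adjusted p = 0.0169). Ibsp, bone sialoprotein, read 5.05 and 4.89 in the controls and 7.15 and 8.51 with FGF9, a rise of 2.86 ± 0.35 (adjusted p = 0.0195). Prom1, the stem cell antigen CD133, rose by 2.10 ± 0.31 (adjusted p = 0.0251) and Rgs16, a brake on G protein signalling, by 2.35 ± 0.17 (adjusted p = 0.0107). Vgf, a secreted neuronal peptide precursor, rose by 1.79 ± 0.24 (adjusted p = 0.022), and Nptx2, a neuronal pentraxin, by 1.71 ± 0.15 (adjusted p = 0.0143), against the direction of the neuronal lists.

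Single genes outside the lists also fell. Myt1l, a factor of neuronal identity, read 9.00 and 9.15 in the controls and 7.33 and 7.83 with FGF9, a fall of 1.49 ± 0.16 (adjusted p = 0.0173), and Celf4, a neuronal RNA-binding protein, read 9.84 and 10.91 in the controls and 8.05 and 9.68 with FGF9, a fall of 1.51 ± 0.18 (adjusted p = 0.0194). The homeobox genes Dlx1 and Dlx5 of GABAergic neurons fell by 1.40 ± 0.23 (adjusted p = 0.0302) and 1.29 ± 0.23 (adjusted p = 0.0357), and Tac3, the precursor of neurokinin B, by 1.34 ± 0.16 (adjusted p = 0.0195). Zmynd10, a factor that assembles the dynein arms of motile cilia, fell by 1.29 ± 0.22 (adjusted p = 0.0307).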
